A study of Mus musculus with 10 samples.

Results

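Of the 24386 genes in the tables, 7 that the transcription factor p53 switches on were followed by nascent RNA during induction of Xist. They are Cdkn1a, Ccng1, Mdm2, Trp53inp1, Phlda3, Sesn2 and Zmat3. The 7 members were chosen by name as direct p53 targets, not by a rule on their values. Earlier results of these data were known at that choice. Each member had a row in all 10 tables. Cells were TX1072, a female mouse embryonic stem cell (ESC) line from a cross of Mus musculus castaneus (Cast) and C57BL/6 (B6), labelled WT, in which doxycycline (DOX) drives the endogenous Xist gene on the B6 X chromosome. All groups come from this 1 line, grown on gelatin in serum with LIF and 2i, so every sample carries the inducible allele and the 0 h cells are the uninduced control. From 24 h after plating the medium held DOX at 1 µg/ml. Samples were taken after 0, 4, 8, 12 and 24 h, with 2 replicates each, following labelling of new RNA for 5 min with 0.5 mM 4-thiouridine. No sample without DOX at the later times was analysed here, so time in DOX and time in culture cannot be told apart. No sample with p53 removed or activated was analysed here, so dependence of the members on p53 was not measured.

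p53 is held low in unstressed cells because MDM2, itself the product of a p53 target gene, marks it for degradation. DNA damage or disturbed ribosome production in the nucleolus blocks this decay, and p53 then binds its response elements and raises transcription of genes for cell-cycle arrest, repair, metabolism and cell death. Mouse ESCs express p53, and its target genes are widely used as a readout of such stress.

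Transient transcriptome sequencing (TT-seq) reads RNA made during the short label, and counts cover the whole gene span with its introns. Total counts per sample ran from 18809046 to 22274929, and 49.2% to 52.8% of them were assigned to an allele. Levels are given as CPM, counts scaled to a common library size, after TMM scaling, which sets a gene against the other genes of its library, so a change shared by all genes would not appear. In such bulk samples, fewer cells of a type and less RNA per cell cannot be told apart. Xist itself went from a mean of 1.45 CPM at 0 h to 386 CPM at 4 h and 445 CPM at 24 h. Of 8 ESC markers, 7 were above 1 CPM, among them Esrrb at 1028 CPM and Nanog at 301 CPM on average, and their summed level was 2749 to 2889 CPM at 0 h and 2823 to 2867 CPM at 24 h. Sox2 was at 0 in every sample, and its span lies inside that of Sox2ot on the same strand, and featureCounts by default leaves reads over overlapping genes uncounted. Markers of primitive endoderm, mesoderm, neural cells and fibroblasts summed to at most 10.5 CPM per list in any sample, and Sox1 and Lum were at 0. The 4 primed epiblast markers were all above 1 CPM on average and summed to 118 to 153 CPM, mostly from Dnmt3b with a mean of 127 CPM.

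All 7 members were transcribed, passed the filter on low counts, and lay on autosomes as protein-coding genes with no gene on the same strand within their span. Cdkn1a lies at chr17:29090979-29100722 on the plus strand and Phlda3 at chr1:135766085-135769134 on the plus strand (mm10, as in the tables, counted from 1). Trp53inp1 lies at chr4:11156441-11174377 on the plus strand, and Sesn2 on the same chromosome at chr4:132492807-132510456 on the minus strand. Ccng1 at chr11:40748552-40755286, Mdm2 at chr10:117688875-117710758 and Zmat3 at chr3:32334794-32365665 are on the minus strand. Zmat3 overlaps 4930429B21Rik on the opposite strand, which counting by strand keeps apart. Per kilobase of gene span, Mdm2 was highest with a mean of 11.4 CPM per kb, then Ccng1 with 9.88, Trp53inp1 with 9.87, Cdkn1a with 7.98, Sesn2 with 5.08, Phlda3 with 5.01 and Zmat3 with 4.53. Neighbours in this order overlapped over the 10 samples, except Cdkn1a and Sesn2. The median of all 14525 tested genes was 0.987 CPM per kb, and between 88.1% and 96.8% of them were below each member.

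Promoter windows, 250 bases before to 50 after a start site, were available from RefSeq (GRCm38.p6) for 5 of the 7 members, with 2 start sites for Cdkn1a. They were searched for the p53 response element, which is made of 2 adjoining half-sites of 10 letters, each with the core CNNG, and reads alike on both strands. A match was set at 18 of the 20 letters of the consensus after the members' windows had been seen, and it was found in 107 of 32851 windows (0.326%). Such an element was held by 2 members, Cdkn1a and Ccng1, each with 19 of 20 letters matched. Both are given from 250 bases upstream to the start site, 5′ to 3′ on the gene's strand, with the matched element in capitals, to show the letters found in a type of element that p53 is known to bind.
Cdkn1a outer start, chr17:29090729-29090978, plus strand: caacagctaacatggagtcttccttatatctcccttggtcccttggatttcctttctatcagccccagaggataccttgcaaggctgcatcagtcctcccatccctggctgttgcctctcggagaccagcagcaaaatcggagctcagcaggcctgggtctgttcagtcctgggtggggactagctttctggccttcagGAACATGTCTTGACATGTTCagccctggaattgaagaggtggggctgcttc
Ccng1, chr11:40755287-40755536, minus strand: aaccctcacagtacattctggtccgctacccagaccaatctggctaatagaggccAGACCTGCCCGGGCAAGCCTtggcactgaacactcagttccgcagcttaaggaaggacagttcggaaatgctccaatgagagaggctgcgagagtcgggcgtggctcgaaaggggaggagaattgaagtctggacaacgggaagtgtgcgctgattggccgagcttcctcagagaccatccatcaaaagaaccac
In Cdkn1a the element ran from -51 to -32 relative to the outer start. The inner start lies 2.79 kb further on, 2841 bases from the element's first base, and its window had no match. In Ccng1 it ran from -195 to -176. The windows of Mdm2, Phlda3 and Sesn2 had no match at this setting, which speaks only of these letters in these windows. Trp53inp1 and Zmat3 were not matched to a window.

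No change of the cell-cycle genes from 0 h passed the test. Cdkn1a encodes p21, an inhibitor of cyclin-dependent kinases that halts the cell cycle and is the best known p53 target. It had 85.7 and 72.8 CPM in replicates 1 and 2 before DOX, then 94.2 and 69.4 (4 h), 83.4 and 70.0 (8 h), 74.5 and 76.5 (12 h) and lastly 73.9 and 76.8 (24 h). Replicates of 1 time point at 0 to 8 h lay further apart than the time points did, and the later values overlapped those at 0 h. The change at 24 h was -0.07 on the log2 scale (SE 0.12, edgeR quasi-likelihood test, adjusted p = 0.928), or -4.50% with a 95% interval of -20.4% to 14.6%. Ccng1 encodes cyclin G1, which recruits a phosphatase to MDM2. Its CPM was 65.6 and 67.1 before DOX, then 75.4 and 64.2 (4 h), 67.8 and 62.1 (8 h), 62.0 and 64.2 (12 h) and lastly 76.9 and 60.5 (24 h). Both 12 h values lay below both at 0 h. The 24 h replicates fell on either side of both 0 h values, and the log2 change was 0.05 (SE 0.11, adjusted p = 0.934, interval of the difference -11.4% to 21.8%).

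Genes whose products act back on p53 gave no change that passed the test either. Mdm2, the ubiquitin ligase that keeps p53 low, had 229 and 255 CPM before DOX, then 259 and 230 (4 h), 246 and 253 (8 h), 265 and 254 (12 h) and lastly 256 and 247 (24 h). Its 10 values spanned 1.15-fold, and the log2 change at 24 h was 0.06 (SE 0.08, edgeR adjusted p = 0.884, interval -7.26% to 17.2%). Trp53inp1 encodes a stress protein that binds p53 and also acts in autophagy. Its CPM was 162 and 177 before DOX, then 189 and 173 (4 h), 182 and 176 (8 h), 166 and 175 (12 h) and lastly 196 and 174 (24 h). One 24 h replicate was above both 0 h values and the other lay between them. With a log2 change of 0.13 (SE 0.08, adjusted p = 0.667, interval -2.93% to 23.4%), Trp53inp1 had the largest difference of any member at any time against 0 h, and 43.4% of all tested genes were further from 0 at 24 h. Its size rested on single samples, as the log2 change was 0.03 without replicate 1 at 24 h and 0.21 without replicate 2.

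Among genes for growth control, metabolism and RNA binding, no change at 24 h passed the test. Phlda3, which encodes an inhibitor of AKT signalling, was the least abundant with 262 to 382 reads per sample. Its CPM was 17.7 and 12.4 before DOX, then 18.4 and 13.7 (4 h), 15.6 and 14.9 (8 h), 13.9 and 15.7 (12 h) and lastly 15.7 and 14.4 (24 h). Both 24 h values lay between those at 0 h, and the interval of the change was the widest of the 7, from -21.4% to 28.2% around a log2 change of 0.01 (SE 0.17, adjusted p = 0.997). Sesn2 encodes sestrin 2, a leucine sensor that restrains mTORC1. It had 94.0 and 83.6 CPM before DOX, then 96.8 and 81.2 (4 h), 89.0 and 94.1 (8 h), 88.3 and 94.7 (12 h) and lastly 90.4 and 83.9 (24 h). Its 24 h values lay within the 0 h range, with a log2 change of -0.02 (SE 0.09, adjusted p = 0.976, interval -14.1% to 13.1%). Zmat3 encodes a zinc finger protein that binds RNA and acts in splicing. Its CPM was 147 and 139 before DOX, then 141 and 147 (4 h), 144 and 142 (8 h), 136 and 136 (12 h) and lastly 134 and 133 (24 h). Here the 12 h and 24 h values lay below both 0 h values, and the change at 24 h was -0.09 on the log2 scale (SE 0.07, adjusted p = 0.744, interval -15.1% to 3.87%).

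**Figure D1:**
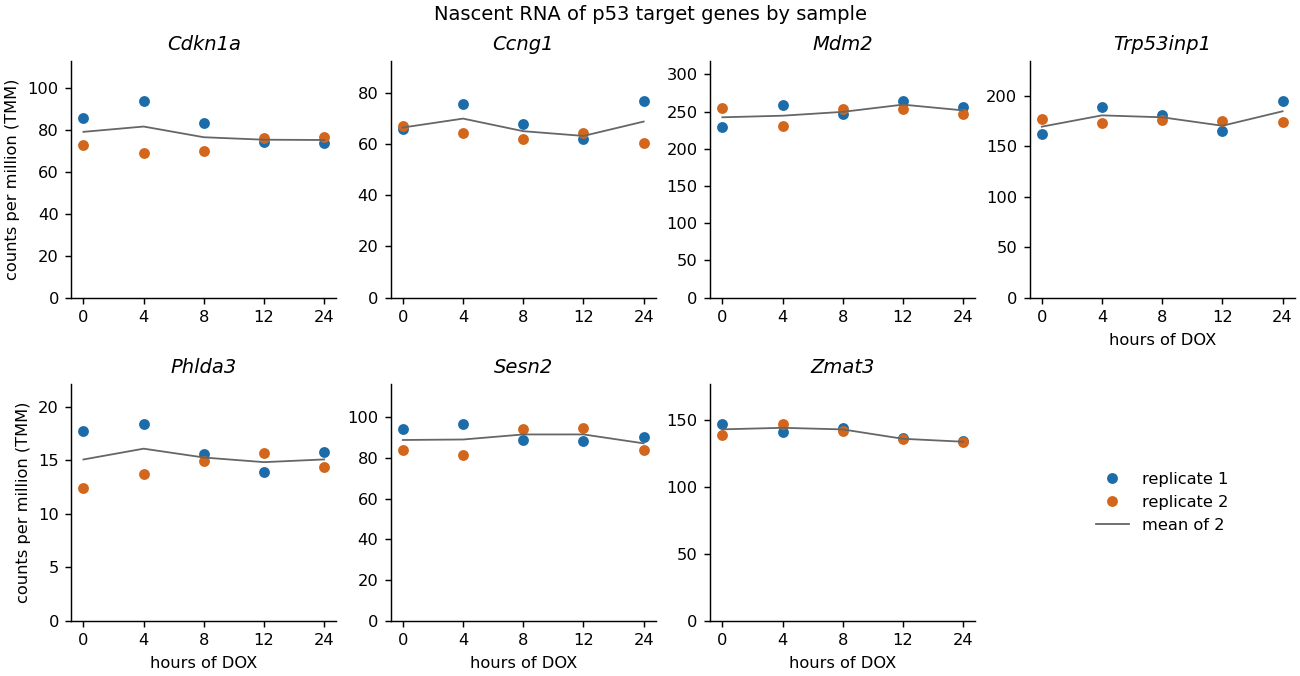
Nascent RNA of the 7 members in CPM (y axis, from 0, own scale per gene) against hours of DOX (x axis, evenly spaced categories), with 1 point per sample coloured by replicate and a line through the mean of 2. No panel holds a change from 0 h that passed the test, and at 0 and 4 h the replicates of Cdkn1a and Phlda3 lay further apart, as a ratio, than those of the other 5.

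None of the 7 members passed an adjusted p of 0.05 against 0 h at any time in the edgeR fit. With 0 of 7 called each time, the share of all 14525 tested genes was 0.0138% (4 h), 0.193% (8 h), 0.95% (12 h) and 1.85% (24 h). A test for any difference among the 5 times called 0 of 7 members against 1.25% of genes. Between successive times, 0 of 7 were called at 8 h against 4 h (0.0% of genes), at 12 h against 8 h (0.0%) and at 24 h against 12 h (0.00688%). Before adjustment, 0 members had a p under 0.05 in any of these 8 comparisons. The share of all genes with such a p was 2.09% (4 h), 4.06% (8 h), 11.5% (12 h) and 10.3% (24 h) against 0 h, 8.45% over the 5 times, and 2.31%, 4.4% and 9.02% for the 3 steps in the order above. DESeq2 and limma voom called 0 members against 0 h and over all times. The replicate block, a term for replicate number that the total counts call for, likewise called 0 of 7 at each time, where it called 0.0344% (4 h), 0.744% (8 h), 4.94% (12 h) and 5.32% (24 h) of genes, and 0 of 7 over the 5 times (6.12% of genes). All these shares include X-linked genes, while the 7 members are autosomal. Without the block and with adjustment over autosomal genes alone, 0 of 7 members were called at each time against 0 h. That adjustment called 1 gene (4 h), 0 (8 h), 1 (12 h) and 16 (24 h), against 2, 28, 138 and 269 over all genes. Beside background shares this low, 0 of 7 is no result particular to the members. Intervals given for single members come from the fit without the block. With it every member's interval at 24 h was narrower and still included 0. That of Cdkn1a ran from -14.7% to 7.99% and that of Phlda3 from -15.0% to 20.1%.

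Sizes of change were small in both directions. Over the 7 members and 4 later times the log2 change ran from -0.09 to 0.13. The median was 0.05 (4 h), 0.02 (8 h), -0.02 (12 h) and 0.01 (24 h), beside medians of 0.00, 0.00, 0.00 and 0.01 over all tested genes. All 7 estimates were above 0 for 4 h, then 5 (8 h), 3 (12 h) and 4 (24 h), and these comparisons share the same 0 h samples. The replicates of 0 h and the later time did not overlap for 0 of 7 members at 4 h (25.0% of tested genes), 0 of 7 at 8 h (30.1%), 2 of 7 at 12 h (Ccng1 and Zmat3, both lower, 40.7%) and 1 of 7 at 24 h (Zmat3, lower, 36.1%).

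**Figure D2:**
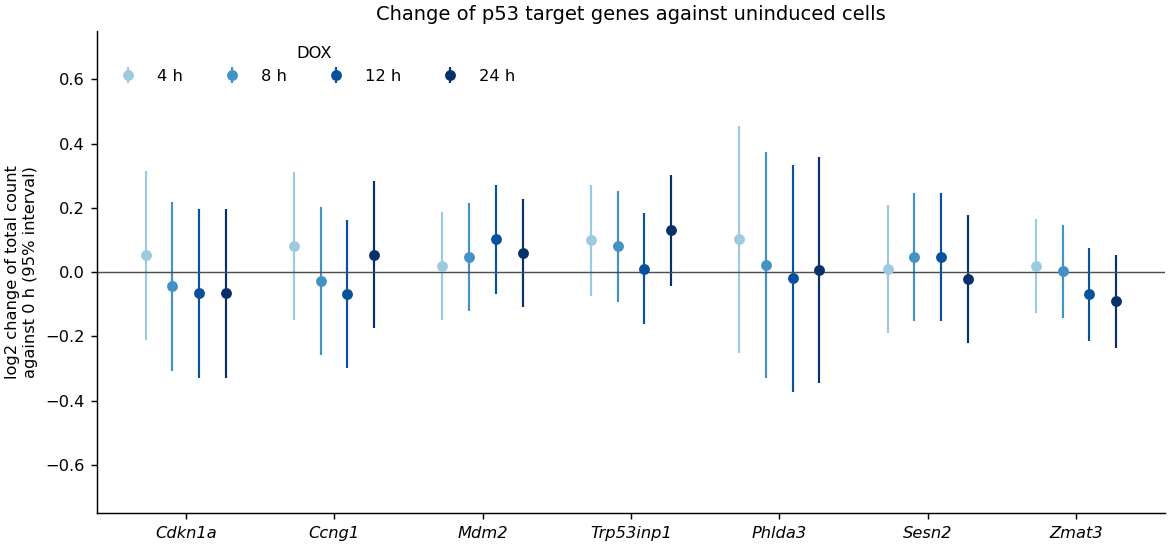
Log2 change of the total count against 0 h (y axis) for each member (x axis) at 4, 8, 12 and 24 h of DOX, with bars for the 95% interval from the edgeR fit without the replicate block. All 28 intervals include 0, and those of Phlda3 are the widest.

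Replicates of a time point differed more than time points for part of the set. The coefficient of variation over all 10 samples was 11.9% for Phlda3, 10.1% for Cdkn1a, 8.35% for Ccng1, 5.98% for Sesn2, 5.60% for Trp53inp1, 4.68% for Mdm2 and 3.68% for Zmat3. Its median was 6.54% over the other 6651 tested genes within the members' range of mean CPM. Cdkn1a was higher in replicate 1 by 0.23 on the log2 scale at 0 h, 0.44 at 4 h and 0.25 at 8 h, but not at 12 h (-0.04) or 24 h (-0.06). In the fit with the replicate block, replicate 1 exceeded replicate 2 by 0.17 (SE 0.05, edgeR adjusted p = 0.0342) for Cdkn1a, the 1 member of 7 called in a comparison that called 11.7% of all genes. For Phlda3 the difference was 0.19 (SE 0.08, adjusted p = 0.104) and for Ccng1 0.13 (SE 0.05, adjusted p = 0.109). All 7 members had an estimate above 0, beside 7378 of 14525 tested genes. Of the 7, 3 had an unadjusted p under 0.05, beside 25.5% of genes. Without a sample of the 0, 4 or 8 h pair the difference of Cdkn1a was no longer called. It was 0.15 without either 0 h sample (adjusted p = 0.153 and 0.146), 0.10 without either 4 h sample (0.265 and 0.289) and 0.15 without either 8 h sample (0.0793 and 0.0841).

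Across the 10 samples the members moved together only in part. Pearson's r of log2 CPM between members ran from -0.72 for Mdm2 and Zmat3 to 0.81 for Phlda3 and Sesn2. The median was 0.21 over 21 pairs, 17 of them above 0. Cdkn1a and Phlda3 had r = 0.80, and Ccng1 and Trp53inp1 had r = 0.79. These values describe 10 samples that share libraries and their depth, and carry no test. No r between pairs of other genes was set beside them. Among 12878 other tested genes with a mean of at least 1 CPM, the highest r with a member was 0.95 for Klhl42 with Cdkn1a, 0.95 for Inafm2 with Ccng1, 0.93 for Fbxo3 with Mdm2 and 0.92 for Dleu7 with Trp53inp1. It was 0.96 for Cdk5 with Phlda3, 0.92 for Gnai2 with Sesn2 and 0.93 for Crtc3 with Zmat3.

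Both alleles contributed to every member, and no shift of their balance with time passed the test. The B6 share is the percent of allelic reads assigned to B6. With 10 samples per gene, the lowest, median and highest B6 share were 49.7%, 51.3% and 52.7% for Cdkn1a, 46.8%, 54.0% and 55.4% for Ccng1, and 45.8%, 49.2% and 52.7% for Sesn2. They were 42.0%, 44.5% and 48.1% for Trp53inp1 and 53.8%, 56.1% and 58.1% for Zmat3. Precision was poor for Phlda3, with 72 to 122 allelic reads per sample and a share of 50.6%, 59.1% and 64.9%, and for Mdm2, with 96 to 127 allelic reads and 42.0%, 48.0% and 52.5%. Only 2.11% of Mdm2 reads could be assigned to an allele, against 29.3% for Phlda3, 40.0% for Trp53inp1 and 63.0% to 73.3% for the other 4.

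Shares at 24 h did not overlap those at 0 h for 3 of 7 members, lower for Mdm2 and Phlda3 and higher for Zmat3, as was so for 35.6% of 11906 genes. Cdkn1a had B6 shares of 50.9% and 49.7% at 0 h and 50.3% and 51.3% at 24 h. Those of Ccng1 were 52.4% and 55.2% at 0 h and 54.8% and 51.1% at 24 h, and in a single sample, replicate 2 at 8 h, its share was 46.8% (95% Wilson interval 43.2% to 50.5%). Mdm2 went from 52.5% and 48.8% to 48.6% and 47.1%, and Trp53inp1 from 45.0% and 42.5% to 43.7% and 43.8%. Phlda3 went from 59.8% and 58.3% to 50.6% and 58.2%, with a Wilson interval of 40.3% to 60.8% for the lowest of these, and Sesn2 from 50.3% and 46.7% to 45.8% and 50.5%. Zmat3 had 55.6% and 53.8% at 0 h and 58.1% and 55.7% at 24 h, the latter both above the former.

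In the edgeR fit of B6 against Cast counts, 0 of 7 members were called against 0 h for 4 h (0.353% of 11906 genes), 8 h (1.65%), 12 h (2.16%) or 24 h (2.65%). The 11906 genes include X-linked ones, and of the 315 called at 24 h, 284 had a lower B6 share. DESeq2 also called 0 of 7 at each time. At an unadjusted p under 0.05 there was 1 member at 4 h, Zmat3 (log2 change of B6 over Cast 0.16, SE 0.07, adjusted p = 0.957), and 1 at 8 h, Trp53inp1 (0.18, SE 0.09, adjusted p = 0.785). Of all genes, 4.98% (4 h), 6.05% (8 h), 7.53% (12 h) and 8.3% (24 h) had such a p, and 0 members had one at 12 or 24 h. At 24 h the change of B6 over Cast was 0.13 for Zmat3 (SE 0.07), 0.03 for Cdkn1a (SE 0.10), 0.01 for Trp53inp1 (SE 0.09), -0.01 for Sesn2 (SE 0.10) and -0.04 for Ccng1 (SE 0.11). It was -0.15 for Mdm2 (SE 0.29) and -0.27 for Phlda3 (SE 0.32), whose intervals reached from -39.2% to 34.0% and from -46.7% to 28.4%. The counts of these 2 genes do not exclude a change of the B6 to Cast ratio anywhere within these intervals.

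The alleles differed in level for most members, as they did for most of the genes tested. Over all times and after TMM scaling, which sets a gene against the overall B6 to Cast ratio of the libraries, B6 was below Cast for Trp53inp1 by -0.44 on the log2 scale (SE 0.03, edgeR adjusted p = 9.91e-11), Mdm2 by -0.25 (SE 0.08, adjusted p = 0.00823) and Sesn2 by -0.18 (SE 0.03, adjusted p = 0.000104). It was above Cast for Phlda3 by 0.35 (SE 0.09, adjusted p = 0.00209) and Zmat3 by 0.23 (SE 0.03, adjusted p = 1.44e-07). Cdkn1a at -0.06 (SE 0.03, adjusted p = 0.0556) and Ccng1 at 0.07 (SE 0.04, adjusted p = 0.162) did not pass. This made 5 of 7 members, beside 70.0% of the 11906 genes tested, so the members' share was near the background. All 10 samples lay below a B6 share of 50% for Trp53inp1, and all 10 above it for Phlda3 and Zmat3. The samples were split for Mdm2, with 7 below 50% and 3 above, and for Sesn2, with 6 below and 4 above. The pooled share was 47.8% for Mdm2 (Wilson interval 44.8% to 50.7%) and 49.0% for Sesn2 (48.1% to 49.9%). The calls of Mdm2 and Sesn2 are therefore set against the overall ratio of the libraries, not against a share of 50%. For comparison, the median B6 share of 11543 autosomal genes was 52.2% at 0 h and 52.4% at 24 h.

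**Figure D3:**
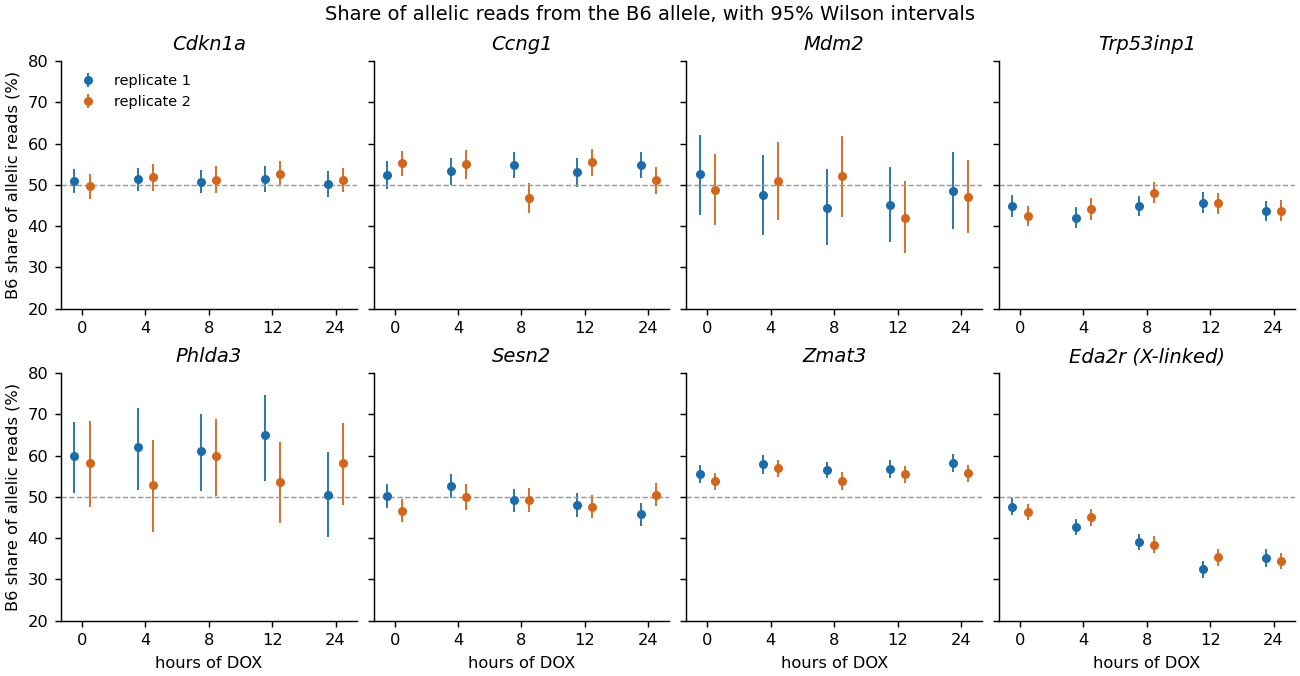
B6 share of allelic reads in percent (y axis, 20 to 80) against hours of DOX (x axis, categories), 1 point per sample coloured by replicate, with 95% Wilson intervals that cover counting error only and a dashed line at 50%. No member's change from 0 h passed the test, the intervals are widest for Mdm2 and Phlda3, and the mean of the X-linked p53 target Eda2r moves from 46.9% at 0 h to 34.8% at 24 h.

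Other p53 target genes, a list of 30 taken from knowledge of the pathway, were tested in the same fit. All 30 passed the filter on low counts. In the edgeR fit without the replicate block, 0 were called at any of the 4 times against 0 h. At an unadjusted p under 0.05 there were 0, 2, 5 and 6 of them at 4, 8, 12 and 24 h. Of all genes, 2.09%, 4.06%, 11.5% and 10.3% had one. Their median log2 change at 24 h was -0.03 beside 0.01 over all tested genes, with 11 above and 19 below 0. At the lower end at 24 h stood Ddit4, a stress-induced inhibitor of mTORC1 (-0.50, SE 0.23, edgeR adjusted p = 0.465), Gadd45a, a growth arrest gene (-0.39, SE 0.17, adjusted p = 0.459), and Pmaip1, which encodes the death protein NOXA (-0.34, SE 0.13, adjusted p = 0.323). Highest were Pidd1, a death-domain gene (0.33, SE 0.18, adjusted p = 0.619), Fas, a death receptor (0.32, SE 0.27, adjusted p = 0.784), and Ei24 (0.21, SE 0.07, adjusted p = 0.245). Mean levels were low for Fas (1.94 CPM), Ddit4 (3.75), Pidd1 (4.87) and Gadd45a (6.41), against 27.8 for Pmaip1 and 96.4 for Ei24. Death genes of the list stood at both ends, and none of these 6 passed the test in this fit without the block.

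With the replicate block, 4 of the 30 were called at 12 h, beside 4.94% of genes, and 2 at 24 h, beside 5.32%. The log2 change of Pmaip1 was -0.44 for 12 h (SE 0.09, edgeR adjusted p = 0.00265) and then -0.35 (24 h, SE 0.09, adjusted p = 0.0162). Its CPM was 31.4 and 32.5 before DOX, then 25.5 and 21.7 (12 h) and 28.5 and 21.8 (24 h), so neither later time overlapped 0 h (as for 40.7% and 36.1% of tested genes). Without the block its 24 h change of -0.34 became -0.16 on leaving out replicate 2 at 24 h and -0.56 on leaving out replicate 1. Btg2, an antiproliferative gene, was lower at 12 h alone by this test (-0.57, SE 0.15, adjusted p = 0.0218), with 9.80 and 6.45 CPM at 0 h and 5.24 and 5.53 at 12 h. Without the block its 12 h change of -0.59 became -0.26 on leaving out replicate 1 at 0 h and -0.87 on leaving out replicate 2. Ei24 was higher at 12 h (0.23, SE 0.07, adjusted p = 0.0377), with 87.2 and 87.8 CPM at 0 h against 102 and 103. Eda2r, a receptor of the tumour necrosis factor family, was lower by the same measure after 12 h (-0.26, SE 0.07, edgeR adjusted p = 0.0124) and after 24 h (-0.26, SE 0.07, adjusted p = 0.0104). Over the 5 times the block called 3 of the 30 (Btg2, adjusted p = 0.0370, Eda2r, 0.00342, and Pmaip1, 0.00333), beside 6.12% of genes. The 4 genes moved in both directions. The fit as reported, without the block, made none of these calls, and other fits without it made 3 of the 6 at 12 and 24 h, for Eda2r at both times and Pmaip1 at 12 h. Between the replicates, 23 of the 30 had a higher estimate in replicate 1 and 7 a lower one. Of the 30, 15 had an unadjusted p under 0.05 (25.5% of genes) and 5 were called (11.7% of genes).

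Eda2r was the one gene of the list whose B6 share was called at any time. It is X-linked, on the chromosome that carries the inducible Xist on B6, and lies at chrX:97333841-97377209. Its B6 share was 46.9% ± 0.920 (SD, n = 2) before DOX, 43.9% ± 1.68 after 4 h, 38.8% ± 0.484 after 8 h, 33.9% ± 2.09 after 12 h and 34.8% ± 0.518 after 24 h. Every later sample, from 4 h on, lay below both at 0 h. At 24 h the shares of 35.6% of 11906 genes did not overlap those at 0 h. After 4 h the log2 of the B6 to Cast ratio had changed by -0.17 (SE 0.07), which did not pass (edgeR adjusted p = 0.823). After 8 h the change was -0.47 (SE 0.07, edgeR adjusted p = 9.72e-08), after 12 h it was -0.77 (SE 0.07, adjusted p = 1.78e-17), and after 24 h it was -0.72 (SE 0.07, adjusted p = 4.83e-16). Of 29 listed targets with enough allelic reads, Eda2r was the 1 called at 8, 12 and 24 h, and 0 were called at 4 h. Of 11906 genes, 0.353% (4 h), 1.65% (8 h), 2.16% (12 h) and 2.65% (24 h) were called. The median B6 share of 362 X-linked genes went from 49.7% at 0 h to 28.3% at 24 h.

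Regulators of p53 were read from 21 genes of the 22 listed. Trp53, the gene of p53 itself, had 92.0 and 85.2 CPM before DOX, then 83.3 and 78.8 (4 h), 80.1 and 79.6 (8 h), 79.8 and 78.2 (12 h) and lastly 83.8 and 81.4 (24 h). All later replicates lay below both at 0 h, samples that all these comparisons share. Replicates did not overlap those at 0 h for 25.0% (4 h), 30.1% (8 h), 40.7% (12 h) and 36.1% (24 h) of tested genes. The log2 change of Trp53 was -0.16 for 12 h (SE 0.07, edgeR adjusted p = 0.414) and then -0.09 (24 h, SE 0.07, adjusted p = 0.752). Mdm4, the partner of Mdm2 in holding p53 down, was at 0.11 at 24 h (SE 0.08, adjusted p = 0.715), as was Chek2, a DNA damage kinase (0.11, SE 0.07, adjusted p = 0.670), and Atr, another such kinase, at 0.10 (SE 0.09, adjusted p = 0.801). The p53 relatives Trp73 and Trp63 were at -0.27 (SE 0.13, adjusted p = 0.526) and -0.22 (SE 0.31, adjusted p = 0.888). Their mean levels were 11.4 and 1.59 CPM.

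Huwe1, a large ubiquitin ligase with p53 among its substrates, was the 1 regulator called in total count. It fell by 0.43 on the log2 scale at 24 h (SE 0.10, edgeR adjusted p = 0.0396), from 1889 ± 238 CPM (SD, n = 2) to 1398 ± 90.1, in a comparison that called 1.85% of genes. The call was lost without replicate 2 at 0 h (-0.30, adjusted p = 0.159), replicate 1 at 24 h (-0.37, adjusted p = 0.318) or replicate 2 at 24 h (-0.50, adjusted p = 0.105), and held with the replicate block (-0.43, adjusted p = 9.37e-05). Over the 5 times Huwe1 was called with the block (edgeR adjusted p = 0.000544) but not without it. In total count at 24 h without the block, 224 of the 269 called genes were lower. Adjustment over autosomal genes alone called 16 there. The share called among X-linked genes alone was not worked out. For 362 X-linked genes the median B6 share was 49.7% at 0 h and 28.3% at 24 h. Huwe1 is X-linked too, at chrX:151803282-151935417. It was the 1 regulator of 21 whose B6 share was called at 8, 12 and 24 h, beside 1.65%, 2.16% and 2.65% of genes. Its share was 45.6% ± 1.99 at 0 h and 27.4% ± 1.11 at 24 h, a change of -1.14 in log2 B6 over Cast (SE 0.04, adjusted p = 1.34e-50). The call at 4 h (-0.21, SE 0.04, adjusted p = 0.000699) was lost without replicate 1 at 0 h (-0.12, adjusted p = 0.942), without replicate 2 at 4 h (-0.15, adjusted p = 0.576) and with DESeq2 (-0.22, adjusted p = 0.678).

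**Figure D4:**
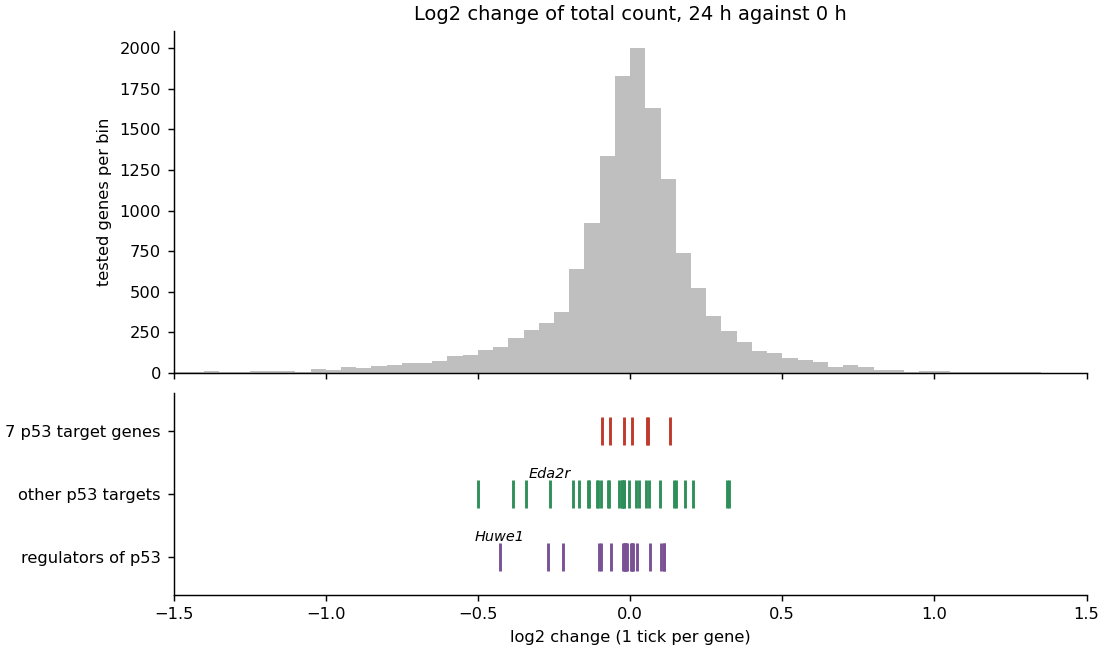
Number of tested genes per bin of 0.05 in log2 change of total count, 24 h against 0 h (upper, x axis from -1.5 to 1.5, with 44 genes outside), and the change of each listed gene as 1 tick (lower). The 7 members lie between -0.09 and 0.13, near the middle of the distribution, with Eda2r at -0.26 and Huwe1 at -0.43.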

How the data were processed

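TT-seq tables of 10 samples (5 times, 2 replicates) were used, grouped by their labels. The authors trimmed reads with Cutadapt 1.16, aligned them with STAR 2.3.0 to mm10 with strain-specific positions masked, kept unique proper pairs with at most 2% mismatches and mapping quality of at least 7, split alleles with SNPSplit 0.3.2 and counted by strand over gene spans with featureCounts 1.5.1. The submitters' processing notes name TopHat2 2.1.0 instead of STAR, and which aligner made these tables was not settled. The deposited values are raw counts of all, B6 and Cast reads per gene, and the deposited fraction is B6 counts over allelic counts, given from 10 allelic reads upward. Spike-in RNA was added, and no scaling to it was used here.

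Total counts were tested with edgeR 4.0.16 (R 4.3.3): filterByExpr, TMM, a quasi-likelihood fit with time over all 10 samples, two-sided, Benjamini-Hochberg adjustment over 14525 genes, called under 0.05. The B6 share was tested on 20 allelic columns with sample intercepts, allele and allele-by-time terms for 11906 genes that had 10 or more allelic reads per sample. Both fits were run on simulated counts with set changes. These had no replicate effect, the same spread for all genes and, for the B6 share, counting error only. They therefore give no error rate for the real data, and B6 against Cast over all times was not simulated. DESeq2 1.42.0 and limma 3.58.1 were alternatives. Python 3.11.15 with scipy 1.17.1 gave the Wilson intervals, which cover counting error only. CPM for likeness had 0.5 added.

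Named were all 7 members and, of each of the 2 other lists, genes called against 0 h plus the 3 highest and 3 lowest log2 changes at 24 h. Genes called with the replicate block alone, and Trp53, were named after their values were seen. Members and lists were chosen with earlier results of these data known. One listed regulator, Cop1, is the newer name of Rfwd2 and was read under the latter. The labels number the replicates without saying what a number shares or whether they are biological. The paper's legend for gene silencing beside promoter H3K27ac loss speaks of biological duplicates. The p-values measure the spread between these samples. Differences of replicate 1 minus replicate 2 correlated across genes between times at r = 0.169 to 0.361 in all 10 pairs of times for total counts, so the numbers were taken as pairing these. For the B6 share r was 0 to 0.032, and they were not. The total-count fit reported has no term for replicate number, which the replicate block adds. With 2 against 2 samples an exact two-sided test of 1 value cannot go below p = 0.333, so none was run.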

Additional observations from a re-analysis of the deposited data

How the results depend on the processing

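Counts of called members equalled those reported under 164 of 172 alternatives. The other 8, and all 6 losses and 4 gains of a member's call, belong to the comparison of replicate 1 with replicate 2, chosen after seeing the data, where leaving out 1 sample gave 0 to 3 called members. Of 1064 member values under alternatives, 102 changed sign, 77 of them on leaving out a sample, and none of the 102 had an adjusted p under 0.05. Against 0 h the member log2 changes ran from -0.27 to 0.39 for total counts and from -0.52 to 0.37 for the B6 share, with an adjusted p of at least 0.353 and 0.262.

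At 24 h the total-count change of Phlda3 turned to -0.0096 without TMM, -0.0092 with scaling from autosomal genes, -0.000133 without a low-count filter, -0.0037 at a mean CPM of at least 1 and -0.22 with the sum of B6 and Cast counts. That sum also gave -0.017 for Ccng1, -0.000723 for Mdm2 and 0.00226 for Sesn2. Leaving out 1 sample gave -0.14 to 0.22 for Ccng1, -0.19 to 0.058 for Cdkn1a, -0.012 to 0.13 for Mdm2, -0.24 to 0.29 for Phlda3, -0.11 to 0.067 for Sesn2 and -0.049 to 0.26 for Atr. For the B6 share at 24 h it gave -0.16 to 0.056 for Ccng1, -0.018 to 0.082 for Cdkn1a, -0.16 to 0.12 for Sesn2 and -0.085 to 0.089 for Trp53inp1. The cause was not tested.

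Of the other targets, the replicate block called 4 at 12 h, 2 at 24 h and 3 over the 5 times, and of the regulators 1 over the 5 times, against 0 and 0 without it. At 12 h 1 was called without TMM (Eda2r) and 1 without a filter (Pmaip1), and at 24 h 1 with DESeq2 and 1 without TMM (Eda2r in both). Of the regulators, 0 were called at 24 h with adjustment over autosomal genes, which leaves out Huwe1, and 0 to 1 on leaving out a sample. For the B6 share of regulators, DESeq2 called 0 at 4 h, and leaving out a sample gave 0 to 1 at 4 h and 1 to 2 at 24 h. Against 0 h and between successive times the block changed no other call of a listed gene in total count. For the B6 share, whose replicates were not paired, it called 0 of 7 members at each time and 5 of 7 for B6 against Cast, and it called 343 instead of 315 genes at 24 h. Leaving out a sample leaves 1 in its group, which is then assumed to vary like the others.

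Depth limits the B6 share of Mdm2 and Phlda3, with about 100 allelic reads per sample, and 2 replicates limit all comparisons.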
